A study of Mus musculus with 6 samples.

Results

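The accessible chromatin of 10 hypoxia response genes was described in primary smooth muscle cells of the mouse oviduct, with and without Pbrm1. The genes were Hif1a, Epas1, Vhl, Egln1, Egln3, Vegfa, Slc2a1, Car9, Ndrg1 and Bnip3, chosen by name, with earlier results of these data known. The reproducible peaks of both genotypes were merged into 66679 regions, and the 47 regions that overlapped the body of one of these genes, or the 10 kb on either side of it, were taken as theirs. ATAC-seq uses the transposase Tn5 to insert sequencing adapters where DNA is open. The study asked where accessibility differs when Pbrm1, which encodes a subunit of the SWI/SNF nucleosome remodeling complex, is deleted. There were 3 libraries labelled WT and 3 labelled Pbrm1 cKO, each made from 50000 cells of mice 8 to 12 weeks old on day 2 of pregnancy after mating with a stud male. The labels give the genotypes only as WT and Pbrm1 cKO. In its uterine work the study describes Pbrm1 cKO mice that carry Pbrm1 fl/fl and a Cre inserted in the progesterone receptor gene (PR-IRES-cre), which acts in cells that express this receptor, with Pbrm1 fl/fl littermates as controls. The same mice are assumed here, in which case the WT libraries carry the floxed allele too. All cells were digested from the oviduct, plated and kept in culture medium for some hours before the assay, and the oxygen level of the culture was not given in the sources used here.

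Cells sense oxygen through the α subunits of the hypoxia-inducible factor (HIF). With oxygen present, prolyl hydroxylases mark these subunits and the VHL ubiquitin ligase has them destroyed. In hypoxia they escape, pair with ARNT and bind the hypoxia response element, a short sequence with the core ACGTG or GCGTG, near genes of glucose uptake, pH control, vessel growth and mitochondrial turnover. In smooth muscle the pathway is best known from the pulmonary arteries, where it takes part in the remodeling of vessels under lasting hypoxia.

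The following 8 stretches are shown because the values below turn on them: they hold the leading promoter or intronic region of a gene, a region whose groups did not overlap or, for Vegfa, a promoter region with 3 copies of the core. They were chosen after their values were seen. Each is 200 bases long, was read from GRCm38 in the direction of the gene and avoids the untranslated sequence annotated by GENCODE and RefSeq. The Hif1a stretch is chr12:73907640-73907839 (+ strand), that of Epas1 is chr17:86753401-86753600 (+ strand) and that of the Egln1 intron is chr8:124926564-124926763 (- strand). The Vegfa stretch is chr17:46032739-46032938 (- strand), that upstream of Slc2a1 is chr4:119105770-119105969 (+ strand) and that inside Car9 is chr4:43508748-43508947 (+ strand). The Ndrg1 stretch is chr15:66969645-66969844 (- strand) and that of Bnip3 is chr7:138909585-138909784 (- strand). Capitals mark the core ACGTG or GCGTG on either strand, and 2 cores that overlap as the palindrome run together.
Hif1a promoter: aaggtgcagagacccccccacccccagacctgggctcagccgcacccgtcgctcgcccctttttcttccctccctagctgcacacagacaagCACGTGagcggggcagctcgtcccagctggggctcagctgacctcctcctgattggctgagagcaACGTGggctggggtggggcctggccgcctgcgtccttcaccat
Epas1 promoter: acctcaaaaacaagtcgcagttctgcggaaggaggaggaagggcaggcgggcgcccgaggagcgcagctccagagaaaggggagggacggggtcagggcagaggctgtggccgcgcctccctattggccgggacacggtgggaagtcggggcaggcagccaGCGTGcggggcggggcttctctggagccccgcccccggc
Egln1 intron: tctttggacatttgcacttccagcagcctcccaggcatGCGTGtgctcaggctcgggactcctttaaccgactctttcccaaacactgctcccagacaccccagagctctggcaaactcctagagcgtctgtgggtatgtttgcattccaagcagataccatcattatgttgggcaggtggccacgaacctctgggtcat
Vegfa promoter: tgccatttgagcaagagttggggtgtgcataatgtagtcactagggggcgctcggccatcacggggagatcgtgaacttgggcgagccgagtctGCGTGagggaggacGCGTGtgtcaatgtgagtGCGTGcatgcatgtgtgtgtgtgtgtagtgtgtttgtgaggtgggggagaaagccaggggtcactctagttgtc
Slc2a1 upstream region: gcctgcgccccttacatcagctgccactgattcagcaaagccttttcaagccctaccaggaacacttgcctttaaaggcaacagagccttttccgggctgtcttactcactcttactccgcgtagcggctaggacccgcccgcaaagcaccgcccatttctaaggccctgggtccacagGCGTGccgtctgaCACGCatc
Car9 internal region: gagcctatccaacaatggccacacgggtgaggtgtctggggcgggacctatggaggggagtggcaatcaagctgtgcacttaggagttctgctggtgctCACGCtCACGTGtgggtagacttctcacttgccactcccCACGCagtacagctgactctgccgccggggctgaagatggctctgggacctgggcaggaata
Ndrg1 promoter: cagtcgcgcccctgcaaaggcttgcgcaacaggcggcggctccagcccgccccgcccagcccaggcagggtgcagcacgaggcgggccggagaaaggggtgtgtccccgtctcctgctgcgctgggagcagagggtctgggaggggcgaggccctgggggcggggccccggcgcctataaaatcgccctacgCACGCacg
Bnip3 promoter: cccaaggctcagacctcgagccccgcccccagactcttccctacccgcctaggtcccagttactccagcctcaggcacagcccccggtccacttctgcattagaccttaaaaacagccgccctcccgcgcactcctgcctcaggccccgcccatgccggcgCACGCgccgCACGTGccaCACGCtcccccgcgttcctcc
Each of these stretches holds the core at least once. The Bnip3 and Car9 stretches hold it 4 times each, and those of Hif1a and Vegfa hold it 3 times each. The stretches were picked and do not stand for every leading region. In the 300 bp around the summit, the leading promoter regions of Vegfa and Egln3 held 0 copies of the core. Those of the other genes held at least 1. A match is a description of the letters and does not show that the factor binds there.

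Values were read from peak lists, which hold no read counts. Each library's list of MACS2 peaks, called at a relaxed threshold, gave a −log10 p for every merged region, and regions were ranked by it within the library, so that rank 1 is the strongest of 66679. The lists held 298563 to 300000 entries. Total reads are unknown here. The median listed summit lay under 13 to 15 tags in 5 libraries and under 8 in WT library 3, which also had no entry over 3065 merged regions, against 400 to 709 in the others. Of smooth muscle markers, 5 of 6 (Acta2, Myh11, Cnn1, Tagln and Des, but not Myocd) had a promoter region, at mean ranks of 19388 to 46897. No promoter region was found for any of 5 epithelial markers. All 3 endothelial markers had one (21012 to 47707), as did all 3 fibroblast markers (23334 to 38127) and 1 of 3 leukocyte markers, Cd68 (22592). The part of other cell types in the results was not tested. The targeted gene was open at its promoter in all 6 libraries (ranks 19394, 10526 and 19166 in WT, and 12415, 12332 and 22222 in Pbrm1 cKO), and a promoter peak does not show whether the deletion took place.

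The windows of all 10 genes held regions that were open in both genotypes. Of their 47 regions, 36 (76.6%) were in the reproducible lists of both genotypes, against 69.2% of all merged regions, and 44 (93.6%) had an entry in all 6 libraries, against 93.5% of all. By position, 15 lay within 1 kb of an annotated start of the gene itself, 16 lay elsewhere inside the gene and 16 lay outside it. Hif1a and Slc2a1 had 7 regions each, Vegfa and Car9 had 6, Epas1 and Egln1 had 5, Ndrg1 had 4, Bnip3 had 3, and Vhl and Egln3 had 2. For Car9 the count overstates the gene, because the other 5 regions of its window lay at the promoters of its neighbours Arhgef39 and Tpm2, and 1 of the 2 regions of Vhl lay at the promoter of Irak2.

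**Figure D1:**
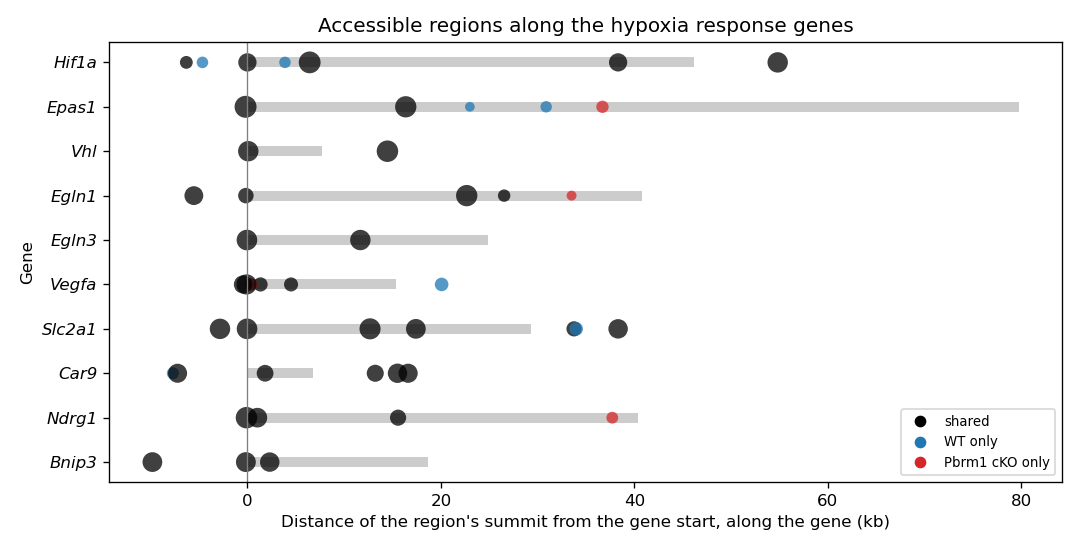
Position of the 47 regions relative to the start of their gene (x axis, kb along the direction of transcription), with gene bodies as grey bars. Larger points have a better mean rank over the 6 libraries, and colour gives the reproducible list that called the region. Each gene except Car9 has a region at its start, and most of the regions called in 1 genotype alone are small points away from the starts.

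Promoter regions of the group ran from mean ranks of 2617 to 49920, and their median was somewhat ahead of that of promoters in general. Promoters in general include the starts of noncoding genes, so these sets are not matched. The median of the mean ranks was 15392 for the 15 promoter regions of the group and 18934 for all promoter regions. It was 27327 for the other 32 regions of the group, which include those at the promoters of neighbouring genes. Over all merged regions away from any promoter it was 40370, so the latter sets are unlike and their medians are not compared. In order of the mean rank of each gene's leading promoter region, Epas1 (2617) came first, followed by Hif1a (3606), Ndrg1 (5904), Slc2a1 (10812), Egln3 (10879), Vhl (12274), Vegfa (13391), Bnip3 (15392), Car9 (31884) and Egln1 (37842). The ranges over the 6 libraries overlapped between every pair of neighbours in this order.

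**Figure D2:**
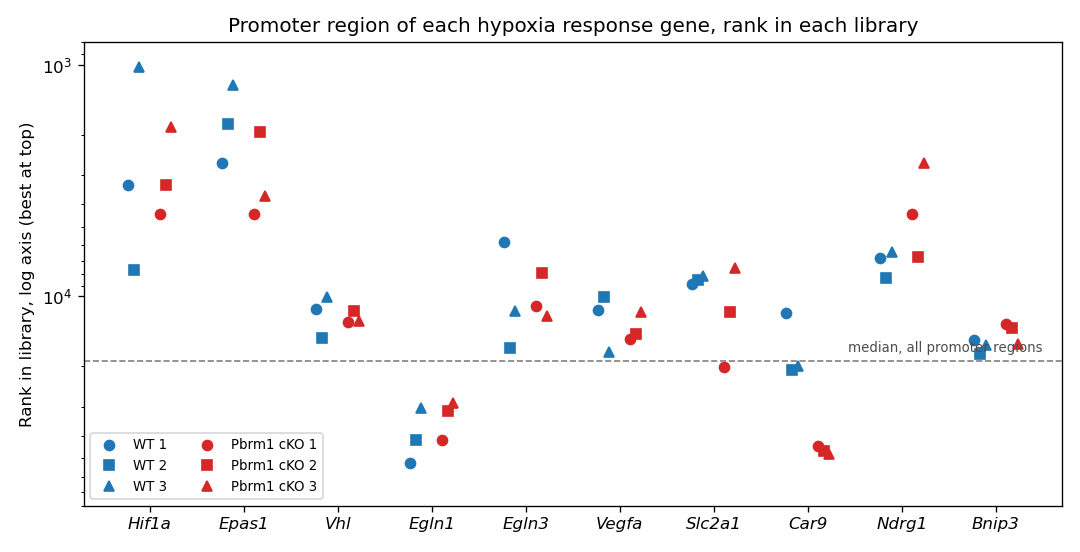
Rank of the leading promoter region of each gene in each library (y axis, log scale, best at the top; circles, squares and triangles are replicates 1, 2 and 3). The dashed line is the median for all promoter regions, 18934. The 3 Pbrm1 cKO points of Car9, at 44062 to 48030, lie below all 3 of its WT points, and the groups overlap at the other 9 genes.

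Between the genotypes, no region of the group passed the test. With limma on the rank score, which is log2(66679 / rank), 0 of 47 regions had an adjusted p under 0.05, and 0.0690% of all merged regions did. At an unadjusted p under 0.05 there was 1 region (2.13%), the one inside Car9, against 15.9% of all regions. With normal scores of the ranks in place of the log2 scale, limma called 1 region (2.13%), again the one inside Car9, against 2.33% of all regions. The median difference, Pbrm1 cKO minus WT, was −0.07 in the group and 0.00 over all regions. Differences were above 0 at 19 regions and below 0 at 28, and they ran from −1.44 to 0.74, while the central 95% of all regions lay between −0.86 and 0.87. The study's supplement calls the replicates biological, but the labels do not say whether they came from separate mice, so the p-values measure only the spread between these libraries. All 3 Pbrm1 cKO libraries ranked a region ahead of all 3 WT libraries in 2 cases (4.26%, against 10.6% of all regions) and behind them in 2 cases (4.26%, against 10.8%). These 4 were the regions upstream of Slc2a1 and 33497 bp inside Egln1, which were ahead, and those inside Car9 and 26528 bp inside Egln1, which were behind. Without WT library 3 there were 4 ahead (against 17.3% of all regions under that setting) and 7 behind (against 17.0%), and 0 passed the limma threshold.

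**Figure D3:**
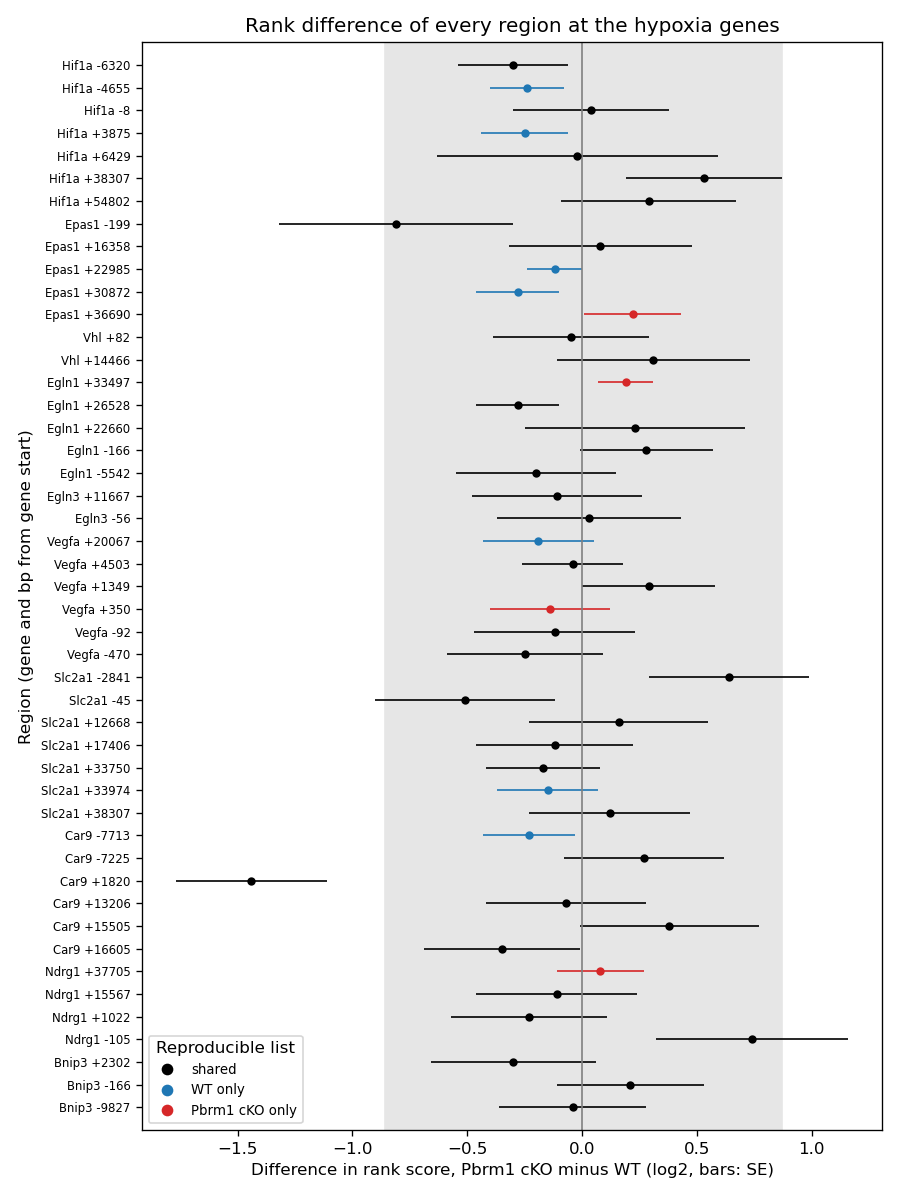
Difference in rank score, Pbrm1 cKO minus WT (x axis, log2, bars are the standard error of the limma fit), for the 47 regions (y axis, named by gene and bp from the gene start). The grey band holds the central 95% of all merged regions, −0.86 to 0.87, and only the point inside Car9 at −1.44 lies outside it.

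Hif1a and Epas1 encode the oxygen-sensitive subunits HIF-1α and HIF-2α, and their promoters were the most accessible of the group. At Epas1 the region around the start (chr17:86753123-86753838, summit 199 bp upstream) ranked 2653, 1799 and 1222 in WT libraries 1, 2 and 3, and 4416, 1943 and 3668 in Pbrm1 cKO libraries 1, 2 and 3. The groups overlapped through WT library 1 and Pbrm1 cKO library 2, and the difference of −0.81 (SE 0.51) did not pass the limma test (unadjusted p = 0.130, adjusted p = 0.462). Fold enrichment of the summit over local background, which MACS2 gives as a ratio, was 16.5, 17.6 and 17.0 in WT and 17.7, 19.5 and 17.1 in Pbrm1 cKO. With regions ranked by this fold enrichment within each library, the difference was −0.72.

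Hif1a had 2 promoter regions. The stronger one (chr12:73907461-73908636) lay 6429 bp downstream of the first annotated start, at a later start that is also the RefSeq one. It ranked 3316, 7722 and 1018 in WT and 4417, 3309 and 1854 in Pbrm1 cKO. The WT libraries spread over more than the Pbrm1 cKO libraries did, and the difference was −0.02 (SE 0.61, limma adjusted p = 0.993). It was 0.75 without WT library 3. The region at the first start was weaker, with ranks of 33463, 22118 and 18434 in WT and 18642, 26228 and 25515 in Pbrm1 cKO.

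Of the Hif1a and Epas1 regions away from promoters, the strongest were an intronic region of Epas1, 16358 bp into the gene, and a region 54802 bp from the Hif1a start and past its end. The Epas1 one ranked 6199, 5457 and 9293 in WT and 9792, 5794 and 4685 in Pbrm1 cKO (difference 0.08, SE 0.40). The Hif1a one ranked 16214, 10664 and 12279 in WT and 6328, 11447 and 15979 in Pbrm1 cKO (difference 0.29, SE 0.38). Both pairs of groups overlapped. The weaker regions of these genes gave differences in both directions: 0.53 in the exon region 38307 bp into Hif1a, 0.22 in the intronic region 36690 bp into Epas1, −0.28 in the one 30872 bp into Epas1 and −0.24 in the one 4655 bp upstream of Hif1a. None of these 4 passed the limma test (adjusted p = 0.463, 0.657, 0.477 and 0.487).

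The regulators that keep HIF in check were open in both genotypes. Vhl, the substrate-binding subunit of the ligase, had 1 region at its start (chr6:113623897-113624894), which ranked 11327, 15066 and 10016 in WT and 12908, 11532 and 12794 in Pbrm1 cKO. The groups lay over each other, with a difference of −0.05 (SE 0.34). Egln3, a prolyl hydroxylase that HIF itself induces, had a region at its start (chr12:54203147-54204024) with ranks of 5807, 16774 and 11560 in WT and 11028, 7944 and 12162 in Pbrm1 cKO (difference 0.03, SE 0.40). Its intronic region, 11667 bp into the gene, was of like strength, at 10556, 16640 and 8389 in WT and 14626, 8827 and 14312 in Pbrm1 cKO (difference −0.11, SE 0.37).

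Egln1, the main prolyl hydroxylase of HIF-1α, had the reverse arrangement. Its promoter region (chr8:124949155-124950011) was the weakest leading promoter of the group by mean rank, at 52669, 41901 and 30450 in WT and 41828, 31377 and 28826 in Pbrm1 cKO. The intronic region 22660 bp into the gene (chr8:124926272-124927020) ranked far ahead of it, at 2607, 8364 and 11610 in WT and 4697, 6007 and 5573 in Pbrm1 cKO. In each of the 6 libraries the intronic region had the better rank. Neither difference between genotypes passed the limma test (0.28, SE 0.29, adjusted p = 0.698 at the promoter, and 0.23, SE 0.48, adjusted p = 0.867 in the intron). Fold enrichment at the Egln1 promoter was 5.21, 7.04 and 5.89 in WT and 8.06, 8.47 and 8.68 in Pbrm1 cKO. These groups did not overlap, although the ranks did. Fold is not scaled between libraries, and the share of all regions with fold groups apart was not taken. Its median over each list was 4.46, 4.57 and 3.61 in WT and 4.87, 4.74 and 4.43 in Pbrm1 cKO. When regions were ranked by fold within each library, the difference at this promoter was 0.29 (SE 0.29, limma adjusted p = 0.693).

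A pair of weak regions further inside Egln1 had groups apart in opposite directions. The region 33497 bp from the start had no entry in WT library 1, ranked 64266 and 56250 in WT libraries 2 and 3, and ranked 52890, 55322 and 55373 in Pbrm1 cKO (difference 0.19, SE 0.12, limma adjusted p = 0.450). The region 26528 bp from the start ranked 38612, 52089 and 46182 in WT and 58415, 53030 and 53605 in Pbrm1 cKO (difference −0.28, SE 0.18, limma adjusted p = 0.459). Both regions lie in the lower part of the ranking.

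Among the target genes, Slc2a1, which encodes the glucose transporter GLUT1, had the only shared region ranked higher in all 3 Pbrm1 cKO libraries. This was the intergenic region with its summit 2841 bp upstream of the start (chr4:119105625-119106133), whose sequence above holds the core on each strand near its 3′ end. An upstream enhancer of this gene is known to respond to hypoxia. The region ranked 14561, 14987 and 14054 in WT and 11118, 10941 and 6679 in Pbrm1 cKO, with fold enrichment of 8.29, 8.44 and 7.24 against 9.84, 9.35 and 10.9. The groups did not overlap on either measure, but the difference of 0.64 (SE 0.35) did not pass the limma test (unadjusted p = 0.0813, adjusted p = 0.381). It was 0.40 without Pbrm1 cKO library 3 and 0.16 when regions were ranked by fold.

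The Slc2a1 promoter region (chr4:119108394-119109340) had a difference of the other sign. It ranked 8875, 8459 and 8184 in WT, a narrow range, and 20183, 11656 and 7515 in Pbrm1 cKO, a wide one. Pbrm1 cKO library 3 ranked it ahead of every WT library, the groups overlapped, and the difference was −0.51 (SE 0.39, limma adjusted p = 0.556). It was −0.14 without Pbrm1 cKO library 1 and −0.85 without Pbrm1 cKO library 3. Inside the gene, the intronic region 12668 bp from the start was of similar strength, at 9058, 5458 and 11062 in WT and 8885, 5219 and 8517 in Pbrm1 cKO (difference 0.16, SE 0.39).

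Car9 encodes a carbonic anhydrase of the cell surface that sets the pH around hypoxic cells. At its main start no merged region was found, and within 1 kb of it WT library 3 and Pbrm1 cKO library 2 had 1 weak interval each (fold 4.06 and 4.21) while the other 4 libraries had 0. The region that the promoter rule assigned to Car9 lay inside the gene (chr4:43508657-43509152, summit 1820 bp from the start), next to the start of a shorter Car9 transcript and 39 bp from the start of the noncoding gene Gm12454. It ranked 11816, 20882 and 20050 in WT and 44062, 46466 and 48030 in Pbrm1 cKO. All 3 Pbrm1 cKO libraries placed it far behind all 3 WT libraries, and its difference of −1.44 (SE 0.33) had the largest size of the 47.

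In this region of Car9 the tags at the summit numbered 53, 34 and 22 in WT libraries 1, 2 and 3, and 22, 18 and 18 in Pbrm1 cKO libraries 1, 2 and 3. Fold enrichment was 13.7, 10.7 and 7.86 in WT and 8.00, 7.11 and 6.49 in Pbrm1 cKO. On this measure the groups overlapped, by WT library 3 and Pbrm1 cKO library 1. The unadjusted p of the limma fit was 0.000322 and the adjusted p was 0.0858, short of the threshold. With normal scores the adjusted p was 0.0127, and over the other alternatives it ran from 0.0628 to 0.225. Without WT library 3 the difference was −1.56 (limma adjusted p = 0.0807). The reproducible lists of both genotypes held the region. Which of Car9 and Gm12454 the accessibility belongs to cannot be told apart.

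**Figure D4:**
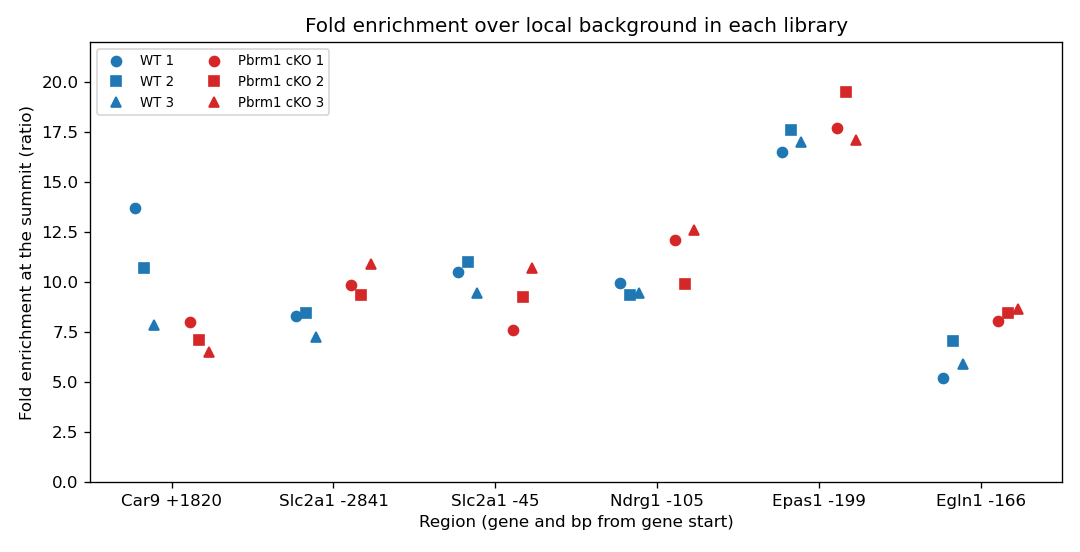
Fold enrichment of the best summit over local background (y axis, ratio, not scaled between libraries) in each library for 6 regions, named by gene and bp from the gene start. The groups are apart upstream of Slc2a1 and at the Egln1 promoter, where Pbrm1 cKO is higher, and they overlap at the other 4, including the region inside Car9 at 6.49 to 13.7. With regions ranked by fold within each library, neither of the former passed the limma test.

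Vegfa encodes the growth factor that draws in vessels. It had 4 regions near annotated starts, of which the leading one (chr17:46032224-46032532, summit 92 bp upstream) ranked 11433, 10071 and 17429 in WT and 15198, 14569 and 11644 in Pbrm1 cKO. The groups overlapped, with a difference of −0.12 (SE 0.35). The region with its summit 470 bp upstream, whose sequence is given above, ranked 20187, 31922 and 16896 in WT and 28878, 27930 and 22619 in Pbrm1 cKO (difference −0.25, SE 0.34). The intronic region 4503 bp into the gene was weak and alike in both groups, at 46125, 41412 and 42246 in WT and 39885, 51706 and 42184 in Pbrm1 cKO.

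Ndrg1, a stress response gene that HIF induces, had the promoter with the largest positive difference. The region at its start (chr15:66969310-66970292) ranked 6797, 8365 and 6427 in WT and 4408, 6771 and 2653 in Pbrm1 cKO. Only Pbrm1 cKO library 2 fell within the WT range, yet the difference of 0.74 (SE 0.42) did not pass the limma test (adjusted p = 0.405). It was 0.39 without Pbrm1 cKO library 3 and 0.05 when regions were ranked by fold. The promoter region of this gene is also within 1 kb of a start of Gm2895. Its intronic region 15567 bp into the gene ranked 22814, 28650 and 50046 in WT and 32573, 48354 and 26189 in Pbrm1 cKO (difference −0.11, SE 0.35).

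Bnip3 encodes a mitochondrial protein that promotes mitophagy. Its promoter region (chr7:138909153-138910251), the one with 4 cores in the stretch above, ranked 15450, 17784 and 16194 in WT and 13158, 13749 and 16014 in Pbrm1 cKO. The groups overlapped by Pbrm1 cKO library 3, and the difference was 0.21 (SE 0.32, limma adjusted p = 0.809). The region 9827 bp upstream was steady across libraries, at 16758, 15677 and 14831 in WT and 16814, 13098 and 19033 in Pbrm1 cKO (difference −0.04, SE 0.32).

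Some regions were called in the reproducible list of 1 genotype alone. There were 7 in the WT list alone (14.9%, against 13.4% of all merged regions) and 4 in the Pbrm1 cKO list alone (8.51%, against 17.4%). These lists hold 1 set per genotype, so the shares have no replicate check. The best ranked of the WT regions lay 20067 bp from the Vegfa start, 33974 bp from the Slc2a1 start, 7713 bp upstream of Car9 at the Arhgef39 promoter, and 4655 bp upstream and 3875 bp downstream of the Hif1a start. Those of Pbrm1 cKO lay 350 bp into Vegfa, 36690 bp into Epas1, 37705 bp into Ndrg1 and 33497 bp into Egln1.

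The single libraries did not divide in the way of these lists. All 7 WT regions had an entry in each Pbrm1 cKO library, while the one 3875 bp into Hif1a had none in WT library 3. Of the 4 Pbrm1 cKO regions 2 had an entry in each WT library. The Vegfa region 20067 bp from the start ranked 38264, 38092 and 50610 in WT and 38028, 64986 and 44686 in Pbrm1 cKO. The region 350 bp into Vegfa, called in Pbrm1 cKO alone, had its best rank in WT library 3 (28397) and ranked behind it in all 3 Pbrm1 cKO libraries (59173, 55091 and 39592).

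The relaxed lists of the single libraries covered the genes to a like extent. Over the 10 windows there were 117, 109 and 113 distinct intervals in WT and 104, 111 and 118 in Pbrm1 cKO, and the groups overlapped at each of the 10 genes. Epas1 had the largest mean numbers (16.0 in WT and 16.3 in Pbrm1 cKO) and the longest window, 99.7 kb. Vhl, with a window of 27.7 kb, had the smallest (4.00 and 3.33), while Car9, with 26.8 kb, had 12.3 and 10.3. The numbers were not scaled to the length of the window. At Slc2a1 all 3 Pbrm1 cKO libraries had 13 intervals and the WT libraries had 13 to 17. These numbers depend on the limit of 300000 entries per list.

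**Figure D5:**
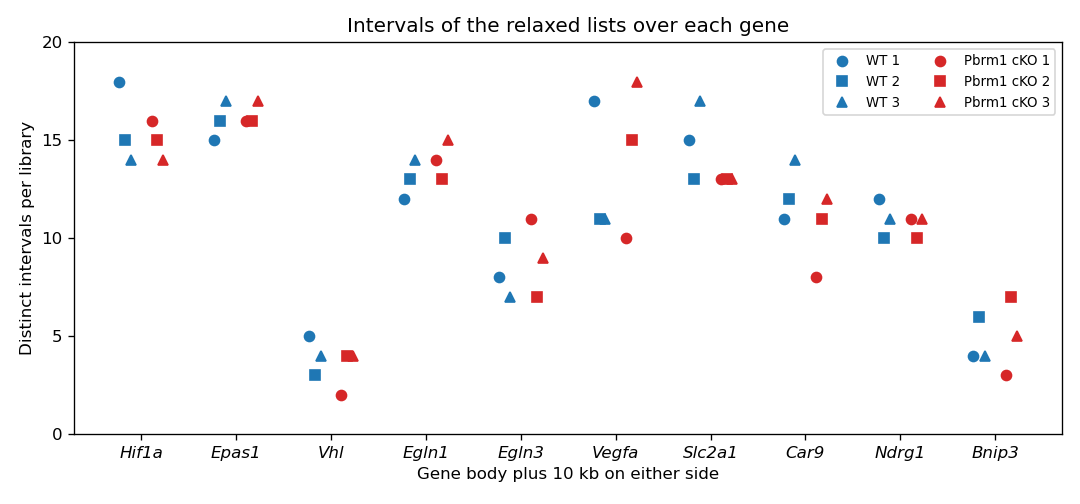
Distinct intervals of each library's relaxed list over each gene body plus 10 kb on either side (y axis, number; colours are genotypes and marker shapes are replicates). At every gene the WT and Pbrm1 cKO points overlap, with 2 intervals at the fewest and 18 at the most.

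Sequence played no part in the choice of the regions, and the core of the HIF motif was common in them. In windows of 300 bp around the summit, the core ACGTG or GCGTG on either strand was found in 15 of 21 regions at a promoter of any gene (71.4%, against 57.0% of all promoter regions) and in 14 of the other 26 (53.8%, against 31.8% of all other regions). The stricter core ACGTG was found in 7 of the 21 (33.3%, against 23.6%) and in 8 of the 26 (30.8%, against 16.4%). The median GC content was 63.3% against 60.0% at promoters and 50.2% against 47.7% elsewhere, so the members were also slightly richer in GC.

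Other motifs were counted in the same windows. The AP-1 site TGANTCA was present in 2 of the 21 promoter windows (9.52%, against 14.8%) and in 12 of the other 26 (46.2%, against 47.0%), among them the upstream region of Slc2a1. The GC box GGGCGG was present in 14 of the 21 (66.7%, against 51.3%) and in 4 of the 26 (15.4%, against 8.99%). The CArG box, bound by serum response factor in smooth muscle genes, was found in 0 of the 21 and in 1 of the 26, again the Slc2a1 upstream region, while 1.26% and 1.91% of all regions held it. In the RefSeq promoter windows of GRCm38, 250 bases before to 50 after the start, 8 of the 10 genes matched with 9 windows, of which 7 held the core ACGTG or GCGTG, against 43.8% of all RefSeq promoters.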

How the data were processed

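ATAC-seq was analysed from 6 libraries, grouped by the genotype and replicate number in their labels (3 WT and 3 Pbrm1 cKO). Per the study's methods, written for its ATAC-seq of uterine stromal cells, the authors ran the ENCODE pipeline on GRCm38, called peaks with MACS2 and kept conservative peaks at an irreproducible discovery rate (IDR) of 0.05. The submitters' processing notes name cutadapt, Bowtie2 and MACS2. The authors deposited a relaxed list per library (p of 0.01, at most 300000 entries) and a pooled IDR list per genotype. Each entry holds a fold enrichment over local background (a ratio), a −log10 p-value and q-value, and a score (the rescaled −log10 p, or IDR in the pooled lists), all deposited by the authors. The authors counted reads, but no count entered here, and ranks took their place. Ranks cannot show a change that the whole of a library has in common, and a region without an entry is below its list's threshold, not shown to be closed.

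The IDR lists were merged by an overlap of at least 1 bp. In each library a region took the rank of its best −log10 p, and a region without an entry took the last rank. The rank score log2(66679 / rank) of every region was fitted with limma 3.58.1 under R 4.3.3, using a trended eBayes step, Benjamini-Hochberg adjustment and a threshold of 0.05. The fit was also run on simulated data, but the share of changed regions that it recovered is not given here. Fold and p together gave whole tags for 100% of summits (within 0.05). Genes and starts came from GENCODE M21, a promoter region lay within 1 kb of a start, and chromosome lengths fitted GRCm38 for every list.

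Named were the 10 genes with their best-ranked promoter region and best region away from promoters, the 5 regions with the smallest unadjusted p in each direction, the 5 best-ranked regions called in 1 genotype alone, and of the wider list the 3 with the smallest p in each direction. The members and lists were chosen with earlier results of these data known. In all, 41 alternatives were tried.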

Additional observations from a re-analysis of the deposited data

How the results depend on the processing

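Of 350 alternative values, 306 kept their direction and their side of the threshold or stayed near the main value. The 350 include fits with a replicate block and fits without the eBayes trend. These leave every difference unchanged by design and can move only the p-values, so the tally overstates how steady the directions were. No region of the group passed the threshold except under normal scores, with 1 of 47 (2.13%, against 2.33% of all regions; inside Car9, difference −1.15, limma adjusted p = 0.0127). The replicate numbers did not pair the libraries (correlations of deviations −0.00283, −0.0548 and 0.00933), and a replicate block left 0 regions of the group past the threshold. The median difference stayed between −0.10 and −0.02.

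Single differences near 0 changed sign. The leading Hif1a promoter region was at 0.02 with normal scores and ran from −0.71 to 0.75 when 1 library was left out (WT library 2 and WT library 3). Vhl was at 0.03 with ranks by fold and ran from −0.22 to 0.08, Bnip3 was at −0.03 with ranks by fold, Egln3 ran from −0.32 to 0.45 and Vegfa from −0.35 to 0.04.

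Counts depended on the window and the ranking. Regions ahead in all Pbrm1 cKO libraries numbered 1 with ranks by fold (9.75% of all regions), 1 among regions with an entry in all 6 libraries (9.15%), and 1 of 31 with 1 kb on either side and 6 of 99 with 50 kb (10.6%). Those behind numbered 6 with ranks by fold (10.5%) and 5 of 99 with 50 kb (10.8%). With 1 library left out the former numbered at most 7 (without WT library 1, against 15.7% of all regions). The latter numbered at most 8 (without Pbrm1 cKO library 2, against 15.2%). With fewer libraries the shares over all regions are themselves larger than the 10.6% and 10.8% of the main setting. At an unadjusted p under 0.05 there were 5 regions of the group without WT library 3 (against 16.7% of all) and 3 without Pbrm1 cKO library 2 (against 12.2%). WT-only regions numbered 3 of 31 with 1 kb and 13 of 99 with 50 kb, against 13.4% of all merged regions. Pbrm1 cKO-only regions numbered 11 of 99 with 50 kb, against 17.4% of all merged regions. At an IDR of 0.01 they numbered 2 of 38, and the share over all regions was not taken under that setting. The mean number of relaxed intervals in Pbrm1 cKO minus WT was −2, and it was 5.33 at a q of 0.05 and 4 among the best 100000 intervals. At a q of 0.05 the numbers were 110, 104 and 87 in WT and 104, 109 and 104 in Pbrm1 cKO. Among the best 100000 they were 58, 64 and 54 in WT and 64, 62 and 62 in Pbrm1 cKO. WT library 3, with the fewest tags per summit, was lowest in both. In the main setting, with 1 library left out, the difference in means ran from −5.5 (without Pbrm1 cKO library 3) to 1.5 (without Pbrm1 cKO library 1), and it was 0 without WT library 1. Depth is known only as tags per summit, and weak regions rest on the fewest.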

Other observations

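A wider list of 75 hypoxia genes, drawn from general knowledge, had a promoter region for 72, and Arnt2, Cox4i2 and Kdm6b had none. Of the 72, 70 were in the lists of both genotypes, as were 81.3% of all promoter regions. The median of their mean ranks was 6181, against 18934 for all promoter regions. Each of the 72 is the best-ranked promoter region of its gene, while all promoter regions include the weaker ones, so these sets are unlike. With limma, 0 of the 72 passed the threshold (smallest adjusted p = 0.121), and 0 passed under normal scores. At an unadjusted p under 0.05 there were 8 regions (11.1%, against 15.9% of all merged regions), 6 with a higher and 2 with a lower rank in Pbrm1 cKO. Without WT library 1, 2 or 3 there were 6, 8 or 6 of the 72 (against 13.6%, 14.5% or 16.7% of all regions). Without Pbrm1 cKO library 1, 2 or 3 there were 4, 3 or 5 (against 11.8%, 12.2% or 14.2%). The difference was above 0 at 44 promoters and below 0 at 28, with a median of 0.18. The median over all promoter regions, weaker ones included, was −0.04, and a set of equally strong promoters was not taken for comparison. All 3 Pbrm1 cKO libraries were ahead of all 3 WT libraries at 7 promoters (9.72%, against 10.6% of all merged regions) and behind at 3 (4.17%, against 10.8%).

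The promoters with the smallest p on the higher side belonged to P4ha2, a collagen prolyl hydroxylase, Hk2, a hexokinase, and Kdm4b, a histone demethylase. P4ha2 ranked 12420, 10764 and 14016 in WT and 4262, 4791 and 6716 in Pbrm1 cKO (difference 1.26, limma adjusted p = 0.121). Hk2 ranked 6917, 7884 and 6571 in WT and 2986, 4886 and 2608 in Pbrm1 cKO (1.08, limma adjusted p = 0.207). Kdm4b ranked 2253, 739 and 702 in WT and 256, 346 and 106 in Pbrm1 cKO (2.32, limma adjusted p = 0.215). The groups did not overlap at any of these 3. With ranks by fold their differences were 1.72, 0.77 and 0.58.

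On the lower side were Slc2a3, a glucose transporter, Nos2, an inducible nitric oxide synthase, and Adm, which encodes the vasodilator adrenomedullin. Slc2a3 ranked 21444, 12016 and 12704 in WT and 29190, 26085 and 23376 in Pbrm1 cKO (−0.81, limma adjusted p = 0.247). Adm ranked 18603, 30644 and 22341 in WT and 33209, 33090 and 39744 in Pbrm1 cKO (−0.59, limma adjusted p = 0.375). At both, the groups were apart. Nos2, in the WT list alone, ranked 47302, 50779 and 58402 in WT, had no entry in Pbrm1 cKO library 1 and ranked 64258 and 58317 in the others (−0.28, limma adjusted p = 0.299), and its groups overlapped.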
